A study of Mus musculus with 30 samples.

Results

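The cytosolic ribosome is built from ribosomal RNA and the proteins of a small subunit (gene names starting with Rps) and a large subunit (gene names starting with Rpl), and it translates all mRNAs that nuclear genes encode. The genes of these proteins are scattered over the genome, and their short, abundant mRNAs commonly begin with a run of pyrimidines, the terminal oligopyrimidine tract, through which mTORC1 signalling controls their translation. Every cell type of the brain uses them. Here the members were the rows of a deposited gene expression table whose gene symbol had the form of a ribosomal protein gene (Rpl or Rps with a number and at most a final a, x or l, Rplp0 to Rplp2, and Rpsa) and whose mean over 30 mice was above 4 on the log2 RPKM scale, where RPKM is a read number normalised for gene length and library size. Of 34871 rows in the table, 80 had such a symbol and 78 passed the level, 32 of the small and 46 of the large subunit.

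The study sequenced total RNA from the cerebral hemispheres of 8-month-old mice of a Tmem106b line in which the gene for the lysosomal membrane protein TMEM106B is lost. There were 10 mice of each genotype, Tmem106b +/+ (the controls), Tmem106b +/- and Tmem106b -/-. Each genotype held 5 females and 5 males, and 6 mice of cohort 1 and 4 mice of cohort 2, so that 18 mice made up cohort 1 and 12 cohort 2. All RNA was extracted in a single experiment, per the labels. The sources used here do not give what the cohorts stand for, the strain of the mice or the site of the mutation. The labels also give each RNA's integrity number (RIN, a score of how intact the RNA is), which ran from 8.5 to 10, and the sample titles give a well on 1 plate with rows A to H and columns 1 to 4. Mice are named below by genotype and a number given in accession order.

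Tmem106b itself fell with each lost copy, from 9.17 ± 0.07 (SD, n = 10, log2 RPKM) in the +/+ mice to 8.58 ± 0.03 (SD, n = 10) in +/- and 7.53 ± 0.08 (SD, n = 10) in -/-, and the 3 ranges did not overlap. Signal of the gene thus remained in the -/- mice, at a log2 difference of -1.64 from +/+. The mean of 13 neuron markers lay between 10.74 and 10.85 in every mouse and that of 14 oligodendrocyte markers between 8.62 and 9.11. The deposited values carry no counts, so the sequencing depth is unknown. Across all genes, a limma fit with genotype, sex, cohort and RIN called 237 of 23695 tested genes at an adjusted p under 0.05 (Benjamini-Hochberg over all tested genes) between -/- and +/+, and 4150 between the cohorts. In hemisphere RNA, fewer cells of a type and less RNA per cell cannot be told apart. The mouse -/- number 4 (male, cohort 2, RIN 10, well B1) stood above all others in ribosomal protein level, and values without it are given beside the results they move most.

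Levels spanned a 36.4-fold range. They are normalised for gene length, and the deposited lengths of the members ran from 255 to 6262 bases. Rplp1 had 495 bases and Rps19 4685, while Rps27l, the lowest member, had 816. The order between genes thus depends on the length set for each gene and is not a count of mRNA molecules. Rplp1, a protein of the acidic stalk that recruits translation factors, was highest with a mean of 12.39 over the 30 mice. It was followed by Rpl4 at 11.88, Rps15 at 11.87, Rpl8 at 11.67 and Rpl32 at 11.30. The lowest were Rpl35a at 7.64, Rpl27 at 7.61, Rps19 at 7.36, Rpl18 at 7.30 and Rps27l at 7.20. Of the 77 neighbouring pairs in this order, 65 lay closer than the larger of their SDs over the mice, and the median SD was 0.10. The 2 rows with a matching symbol that missed the level were Rpl3l at 1.29, a paralog of Rpl3 known from striated muscle, and Rpl39l at -0.31, a paralog of Rpl39 known from testis. No row lay between Rpl3l and Rps27l, so the threshold of 4 decided nothing close.

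**Figure D1:**
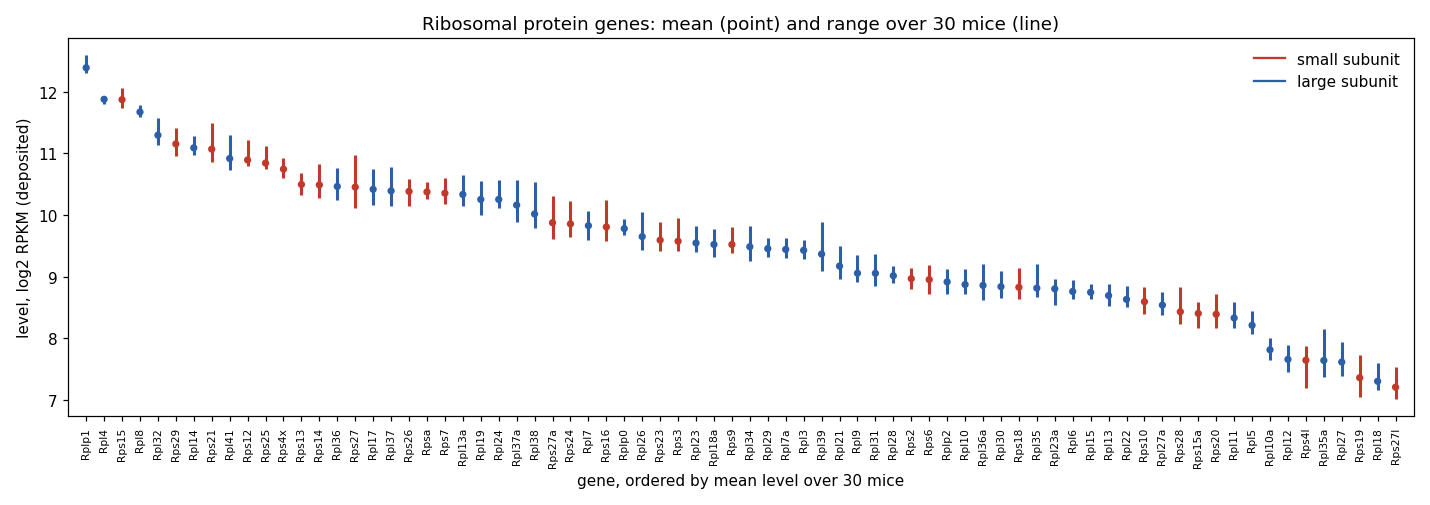
Mean level (points) and range over 30 mice (lines) of 74 of the 78 ribosomal protein genes in log2 RPKM, ordered by mean level, with small subunit genes in red and large subunit genes in blue. Rplp1 leads at 12.39 and Rps27l closes at 7.20, and Rpl4 has the shortest line.

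Paralogs differed widely. Rps27 averaged 10.45 against 7.20 for Rps27l, a p53-inducible paralog, a 9.51-fold gap. Rpl36a averaged 8.86, and its paralog Rpl36al, whose symbol the rule does not match, averaged 8.69. Rps4l, at 7.64, is annotated in GENCODE vM21 as a transcribed processed pseudogene, a single-exon copy of Rps4x at chr6:148354656-148355598 (mm10), and it is the only member not annotated as protein coding. It overlaps Tmtc1, so its value may hold reads of Rps4x or of Tmtc1. In all, 43 of the 78 members overlapped another row of the table, and 57 had pseudogene rows of their own symbol in it. The sources used here do not say how the authors' counting treated reads shared by such copies.

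The genes lie on 19 chromosomes, with 14 of them on chromosome 7 and 4 on the X chromosome, where Rps4x, Rpl10, Rpl36a and Rpl39 lie. Small nucleolar RNAs, which guide chemical modification of ribosomal RNA, are annotated inside 29 of them. Rpl4 holds 5 of these and Rpl13a holds 4.

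The ribosomal protein genes varied together from mouse to mouse. Over the 30 mice the median Pearson r between 2 members was 0.75, and 99.9% of the 3003 pairs had r above 0. On the residuals after genotype, sex, cohort and RIN the median was 0.69. With plate column added to the fit it was 0.51. These 3 medians were 0.68, 0.68 and 0.47 without -/- number 4. The mean of the small subunit genes and the mean of the large subunit genes per mouse had r = 0.99, with or without that mouse. These values are descriptions across mice that share genotypes, sexes, cohorts and plate columns, with no test. Rpl38, Rps19 and Rpl35a were among those that followed the mean of the other members most closely, with r of 0.95, 0.94 and 0.94 on the residuals. At the other end stood the pseudogene Rps4l with r = 0.10, Rpl15 with 0.39, Rps2 with 0.41 and Rpl4 with 0.48. Rpl4 had the smallest SD of all members (0.03) and Rps27 the largest (0.19).

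The sequences around the start sites of members at both ends of that order are shown because these genes moved together to such different degrees. RefSeq start sites on GRCm38.p6 were at hand for 57 of the 78 members. The windows below run from 40 bases before to 10 bases after the start, 5′ to 3′ on the strand of the gene, and capitals mark a run of at least 8 pyrimidines (C or T) that reaches within 20 bases of the start. The 6 members with the highest r that had 1 entry come first.
Rpl38 (chr11:114668540-114668589, + strand): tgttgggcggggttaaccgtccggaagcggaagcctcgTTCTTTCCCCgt
Rpl26 (chr11:68901526-68901575, + strand): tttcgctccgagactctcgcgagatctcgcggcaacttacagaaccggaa
Rps27 (chr3:90213639-90213688, - strand): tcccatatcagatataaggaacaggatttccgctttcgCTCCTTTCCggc
Rpl37a (chr1:72711220-72711269, + strand): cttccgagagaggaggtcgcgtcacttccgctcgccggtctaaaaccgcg
Rpl36a (chrX:134585614-134585663, + strand): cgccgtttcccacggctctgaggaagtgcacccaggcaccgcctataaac
Rpl37 (chr15:5116573-5116622, + strand): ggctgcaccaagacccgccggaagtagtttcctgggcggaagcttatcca
The 3 with the lowest r that had 1 entry follow.
Rpl15 (chr14:18270977-18271026, - strand): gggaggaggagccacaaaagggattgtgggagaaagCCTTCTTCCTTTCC
Rps2 (chr17:24720023-24720072, + strand): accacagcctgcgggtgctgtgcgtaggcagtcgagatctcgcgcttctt
Rpl4 (chr9:64173347-64173396, + strand): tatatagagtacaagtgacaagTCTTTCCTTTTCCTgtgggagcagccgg

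Such a run was found in both sets: in Rpl38 and Rps27 at the high end, and in Rpl15 and Rpl4 at the low end. Of the 57 members, 31 (54.4%) had one, against 23.7% of 27025 genes with an entry. The motif CCGGAAG, the core bound by ETS family factors, was searched on both strands of the 300 bases from 250 before to 50 after the start, where its reverse form CTTCCGG can overlap a pyrimidine run. It occurred in 24 of 57 members (42.1%), against 9.93% of all genes with an entry. Members with and without a pyrimidine run had medians of r with the other members of 0.85 and 0.85, and members with and without CCGGAAG had 0.87 and 0.82. These are letters in a window and not measured binding sites.

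Between the Tmem106b genotypes, no ribosomal protein gene was called. The mean of the 78 genes per mouse was 9.55 ± 0.11 (SD, n = 10) in +/+, 9.53 ± 0.07 in +/- and 9.57 ± 0.09 in -/-, and the ranges overlapped: 9.39 to 9.72, 9.43 to 9.64 and 9.50 to 9.82. In the limma fit, 0 of 78 were called between -/- and +/+, where 1% of all tested genes were called. At an unadjusted p under 0.05 there were 5, or 6.41% of the members, against 12% of all tested genes. The differences ran from -0.04 to 0.10 on the log2 scale with a median of 0.02, or 1.66%, and 64 of 78 were above 0. The 95% intervals of the single genes lay between -0.13 and 0.23. Without -/- number 4 the median was 0.01, and without -/- number 10 it was 0.04.

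Rps27l had the lowest p of that comparison. Its level was 7.01 in the lowest, 7.18 in the median and 7.31 in the highest +/+ mouse, and 7.13, 7.26 and 7.54 in the -/- mice, so the groups overlapped over most of their range. The difference was 0.10 ± 0.03 (SE), with an adjusted p of 0.181. Next came Rpl23a, a large subunit protein at the exit of the nascent chain tunnel, at 0.09 ± 0.04 (adjusted p = 0.328), Rpl27 at 0.09 ± 0.04 (adjusted p = 0.356) and Rpl12 at 0.07 ± 0.03 (adjusted p = 0.387). The lowest value was that of Rps20 at -0.04. Rpl23a was set apart by its lowest mouse, -/- number 10 at 8.55, and without that mouse both Rps27l (0.12) and Rpl23a (0.12) were called. The share of all tested genes called in that fit is not given here. These calls thus cannot be told from a change in calls over all genes.

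For +/- against +/+, 0 of 78 were called (0.00422% of all tested genes), 36 were above 0 and the median was -0.0047, or -0.01 without -/- number 4. Rpl27 was highest at 0.10 ± 0.04 with an adjusted p of 0.768. For -/- against +/-, 0 of 78 were called (0.118% of all tested genes), and 71 of 78 were above 0, with a median of 0.03. Without -/- number 4 that median was 0.02. Rps13, a small subunit protein, had the lowest p at 0.07 ± 0.03 (adjusted p = 0.565). These 3 comparisons share their samples in pairs. With plate column in the fit the number above 0 was 75 of 78 and the median 0.06, and 35 of 78 had an unadjusted p under 0.05 against 9.63% of all tested genes, and 0 were called (0.135% of all tested genes), with a lowest adjusted p of 0.12. That fit without -/- number 4 gave a median of 0.05 and 27 of 78 with an unadjusted p under 0.05. The share of all tested genes at that p without the mouse is not given here. Over all mice, the fit with plate column gave 17 of 78 with an unadjusted p under 0.05 for -/- against +/+. Of all tested genes 12.7% had such a p. For -/- against +/+ it called 0 of 78, against 1.09% of all tested genes. Here +/- had 3 of its 10 mice in plate column 1, as had +/+, and -/- had 2.

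The genotype difference was not called to differ between the cohorts or between the sexes for any member. Its median was 0.05 in cohort 1 and 0.00 in cohort 2, and the test of that difference called 0 of 78 (0.0338% of all tested genes) with 1 at an unadjusted p under 0.05 (8.53% of all tested genes). The median was 0.04 in females and 0.02 in males, and the test of that difference called 0 of 78 and 0% of all tested genes, also with 1 at an unadjusted p under 0.05 (7.1% of all tested genes). The medians in cohort 2 and in males lay below 0 without -/- number 4, a male of cohort 2. With it left out, cohort 1 had a median of 0.05 and cohort 2 one of -0.06, with 13 members at an unadjusted p under 0.05 for the difference between cohorts. Females then had 0.05 and males -0.03, with 12 such members for the difference between sexes. The shares of all tested genes at an unadjusted p under 0.05 in these fits are not given here. The counts of 13 and 12 thus cannot be told from a change over all genes. Both tests of a difference again called 0, and within cohort 1 Rps27l was called higher in -/- at 0.14 (adjusted p = 0.0498), against 2.76% of all tested genes called. In the same libraries 13 of 14 markers of oligodendrocytes and myelin were called lower in -/- than in +/+, with a median of -0.28. The mean of those markers per mouse had r = 0.01 with the ribosomal protein mean over the 30 mice.

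Between the cohorts the ribosomal protein genes differed in 1 direction. In cohort 2, 37 of 78 were called higher and 0 lower, against 8.09% of all tested genes called higher and 17.5% called in either direction. The differences ran from -0.02 to 0.21 with a median of 0.09, or 6.13%, and 75 of 78 were above 0. The 6348 other genes with a mean above 7 had a median of -0.00074, with 816 called higher and 1061 lower. The mean of the members was 9.52 ± 0.08 (SD, n = 18) in cohort 1 and 9.60 ± 0.10 (SD, n = 12) in cohort 2, and no single member had ranges that were apart.

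Rps29, a small protein of the small subunit head, had the lowest p. In cohort 1 it was 10.95 in the lowest, 11.07 in the median and 11.28 in the highest mouse, and in cohort 2 it was 11.11, 11.25 and 11.41. The cohort 2 median thus lay near the top of cohort 1, with a difference of 0.18 ± 0.03 (SE) and an adjusted p of 0.000502. Rps20 was 8.17, 8.31 and 8.53 in cohort 1 and 8.26, 8.45 and 8.71 in cohort 2, and differed by 0.17 ± 0.04 (adjusted p = 0.00169). For both genes the ranges overlapped, and the lowest, the median and the highest mouse were each higher in cohort 2.

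Low adjusted p-values also belonged to Rpl30 (0.12), Rpl26 (0.16), Rpsa (0.09), Rps3 (0.16), Rps4x (0.08), Rpl23 (0.11), Rps28 (0.17), Rpl34 (0.13) and Rps27l (0.12), as log2 differences. Rpsa encodes a protein also known as the laminin receptor, and Rps3 lies at the mRNA entry of the ribosome. Calls came from both subunits, in 15 of 32 small subunit and 22 of 46 large subunit genes, with medians of 0.09 and 0.08. All 3 stalk genes were called, at 0.06 for Rplp0, 0.06 for Rplp1 and 0.10 for Rplp2. Of 6 genes mutated in Diamond-Blackfan anemia, an inherited failure of red cell production, Rps19 (0.16), Rpl11 (0.10) and Rpl35a (0.17) were called, and Rps24, Rps26 and Rpl5 were not, at 0.10, 0.08 and 0.04. At the bottom, Rpl15 had -0.02, Rps2 -0.01, Rpl23a -0.0024 and Rpl3 0.0019, and none was called.

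The cohort count depended on which mice and terms were included. Without -/- number 4 it was 17, against 5.28% of all tested genes called higher and 12.3% in either direction, and without -/- number 10 it was 57. With fits in 1 sex, of 15 mice each, it was 0 in females and 14 in males. The shares of all tested genes called in those fits and without -/- number 10 are not given here. A change of these counts thus cannot be told from a change in calls over all genes. Within genotypes 2 members were called in +/+ (2.64% of all tested genes), 0 in +/- (0.291%) and 1 in -/- (5.15%), with medians of 0.12, 0.06 and 0.08. The 2 in +/+ were Rpl30 (0.19 ± 0.04) and Rps29 (0.24 ± 0.06). The count in +/+ was 8 (3.09% of all tested genes) without -/- number 4, and in -/- it was then 0 (1.9%) with a median of 0.01.

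RIN went with higher ribosomal protein levels in the fit with genotype, sex and cohort, but no single gene was called. With no other terms, the mean of the members per mouse had r = 0.29 with RIN over the 30 mice (Spearman's rho 0.11). In the fit, the slope per RIN unit had a median of 0.11, or 7.67%, and 76 of 78 slopes were above 0. None of the 78 passed the adjusted threshold, where 0.0633% of all tested genes did. At an unadjusted p under 0.05 there were 49 of 78, against 10.3% of all tested genes. Rpl41, whose product is among the shortest proteins known, had the lowest p with a slope of 0.23 ± 0.06 (adjusted p = 0.174). Rpl27 had 0.18 ± 0.05, Rps3 0.18 ± 0.05 and Rpl18 0.17 ± 0.05. Rps27 had the steepest slope at 0.26 ± 0.09 (adjusted p = 0.277), and Rpl23a lay lowest at -0.02. The 2 slopes within the cohorts had medians of 0.09 in cohort 1 and 0.11 in cohort 2, and the test of their difference called 0 members and 0% of all tested genes, with 1 member at an unadjusted p under 0.05 (3.32% of all tested genes). Without -/- number 4 the median slope was 0.08. Without -/- number 10 there was 1 member called, in a fit whose share of all tested genes is not given here.

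That slope changed sign with the plate column. RIN averaged 9.62 in column 1 (n = 8), 9.32 in column 2 (n = 8), 9.21 in column 3 (n = 8) and 9.08 in column 4 (n = 6). With plate column in the fit, the median slope was -0.01, 27 of 78 slopes were above 0 and 0 were called, as of all tested genes (0%), and 3 had an unadjusted p under 0.05, against 6.47% of all tested genes. Over the mice of columns 2 to 4 alone it was -0.03, and over females alone it was -0.0021.

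**Figure D2:**
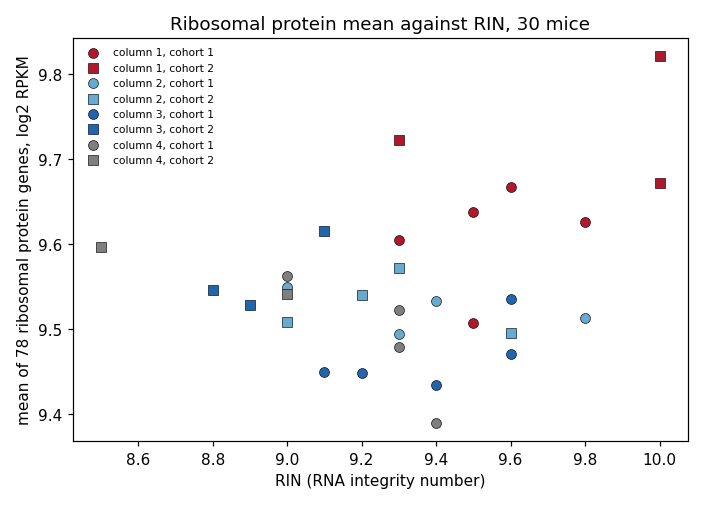
Mean of the 78 ribosomal protein genes per mouse (log2 RPKM) against RIN, with colour for plate column and shape for cohort (circles, cohort 1, squares, cohort 2). Of the 8 red points of column 1, 7 lie above 9.60 and the other, +/- number 9, lies at 9.51, and the mice of columns 2 to 4 have a median slope of -0.03.

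Ribosomal protein levels differed among the plate columns of the sample titles. The 4 columns were added as a factor beside genotype, sex, cohort and RIN. The F test over them called 33 of 78 members, against 1.01% of all tested genes (239 of 23695). Without -/- number 4 it called 32 of 78 members and 226 of all tested genes. Column 1 was then set against the other columns. Both comparisons were added after the level of each mouse had been seen beside its well, so their p-values are a description and no independent evidence. Column 1 held 8 mice (3 females and 5 males, 5 of cohort 1 and 3 of cohort 2, 3 +/+, 3 +/- and 2 -/-). The mean of the members was 9.66 ± 0.09 (SD, n = 8) there, with a range from 9.51 to 9.82, and 9.51 ± 0.05 (SD, n = 22) in columns 2 to 4, with a range from 9.39 to 9.62. The other 3 columns lay close together, at 9.53 ± 0.03 in column 2, 9.50 ± 0.06 in column 3 and 9.51 ± 0.07 in column 4. The sources used here do not say what the column stood for in the laboratory.

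With genotype, sex, cohort and RIN in the fit, 52 of 78 members were called higher in column 1 than in the mean of the other columns and 0 lower, against 2.11% of all tested genes called higher and 3.11% called in either direction. All 78 differences were above 0, from 0.01 to 0.30 with a median of 0.14, or 10.6%. The difference was present in both cohorts as levels, 9.61 ± 0.06 (SD, n = 5) against 9.49 ± 0.05 (SD, n = 13) in cohort 1 and 9.74 ± 0.08 (SD, n = 3) against 9.55 ± 0.04 (SD, n = 9) in cohort 2. A fit to cohort 1 alone (18 mice) called 31 members and a fit to cohort 2 alone (12 mice) called 0. The shares of all tested genes called in these fits are not given here. All 3 column 1 mice of cohort 2 were male. Leaving out each mouse in turn gave counts from 42 to 58, and 52 without -/- number 4, with no share of all tested genes given here.

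Rpl41 had the lowest p. It was 10.97 in the lowest, 11.09 in the median and 11.31 in the highest mouse of column 1, and 10.73, 10.85 and 10.97 in columns 2 to 4, so that the groups touched at 1 value only. The difference was 0.26 ± 0.03 (SE), with an adjusted p of 0.000127. Rps10 was 8.57, 8.71 and 8.82 in column 1 and 8.39, 8.56 and 8.66 elsewhere, and differed by 0.18 ± 0.02 (adjusted p = 0.000127). Rps21 was 11.15, 11.26 and 11.50 against 10.86, 10.99 and 11.22, and differed by 0.29 ± 0.04 (adjusted p = 0.000351). In these 3 genes the median of column 1 lay above the highest mouse of the other columns.

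Low p-values also belonged to Rps19 (0.27), Rps28 (0.24), Rpl37 (0.26), Rpl31 (0.19), Rps20 (0.21), Rps3 (0.20) and Rpl36a (0.22), as log2 differences. Rpl4, the member with the second highest level, differed by 0.01. It was 11.83, 11.91 and 11.93 in column 1 and 11.80, 11.88 and 11.90 elsewhere. Of the small subunit genes 20 of 32 were called, and of the large subunit genes 32 of 46.

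Cohort and column were separate terms. With plate column in the cohort fit, 37 members were again called higher in cohort 2 (6.27% of all tested genes were called higher and 13.9% in either direction), 34 of them shared with the fit without the column, and the median was 0.07. The same fit without -/- number 4 called 22 members (4.1% of all tested genes called higher and 9.39% in either direction), with a median of 0.06. Of the 37 called over all mice in the cohort fit with plate column, 31 were also called for column 1. In all, 20 members were called neither for the cohort in that fit nor for column 1. Among them were Rpl3, Rpl4, Rpl5, Rpl8, Rpl10, Rpl14, Rpl15, Rpl17, Rpl22, Rpl23a and Rpl27 of the large subunit. Of the small subunit there were Rps2, Rps4l, Rps7, Rps12, Rps15a, Rps24, Rps25 and Rps26. Rps12 was called for the cohort in the fit without the column (0.08, adjusted p = 0.0288). With the 8 mice of column 1 left out, 4 members were called between the cohorts, in a fit whose share of all tested genes is not given here. Among the members, neither the cohort nor the column difference followed the deposited gene length or the level. Spearman's rho across the 78 genes was -0.01 with length and 0.01 with level for the cohort. For the column it was -0.10 and 0.08, as descriptions across genes that are not independent. Outside the members, genes under 1000 bases were more often called higher than lower in cohort 2, as given below. A part of gene length was not tested.

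**Figure D3:**
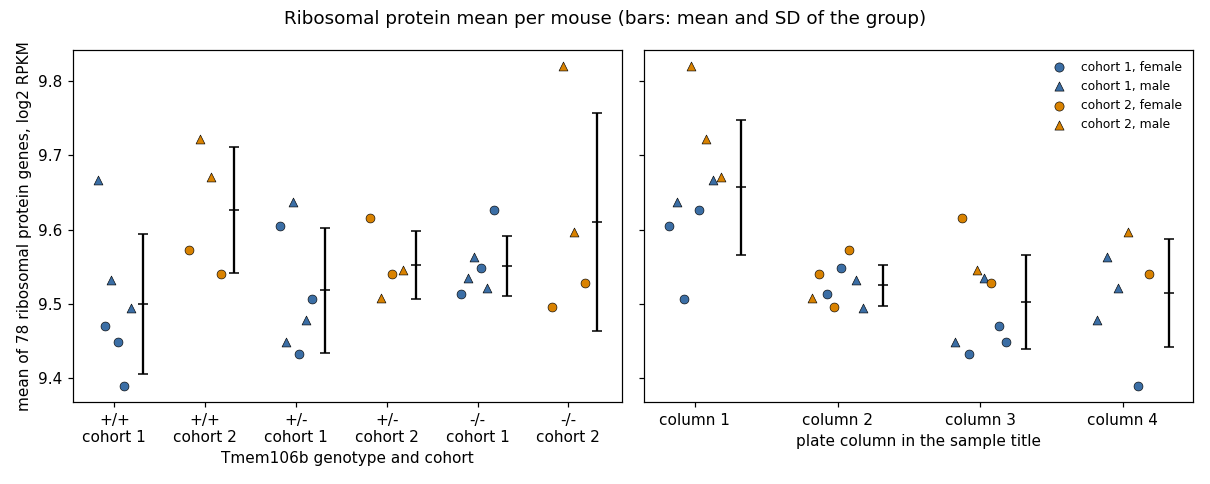
Mean of the 78 ribosomal protein genes per mouse (log2 RPKM) by genotype and cohort (left) and by plate column (right), with circles for females, triangles for males, blue for cohort 1 and orange for cohort 2, and bars for the mean and SD of each group. Genotype groups overlap widely, and 7 of the 8 mice of column 1 lie above 9.60.

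**Figure D4:**
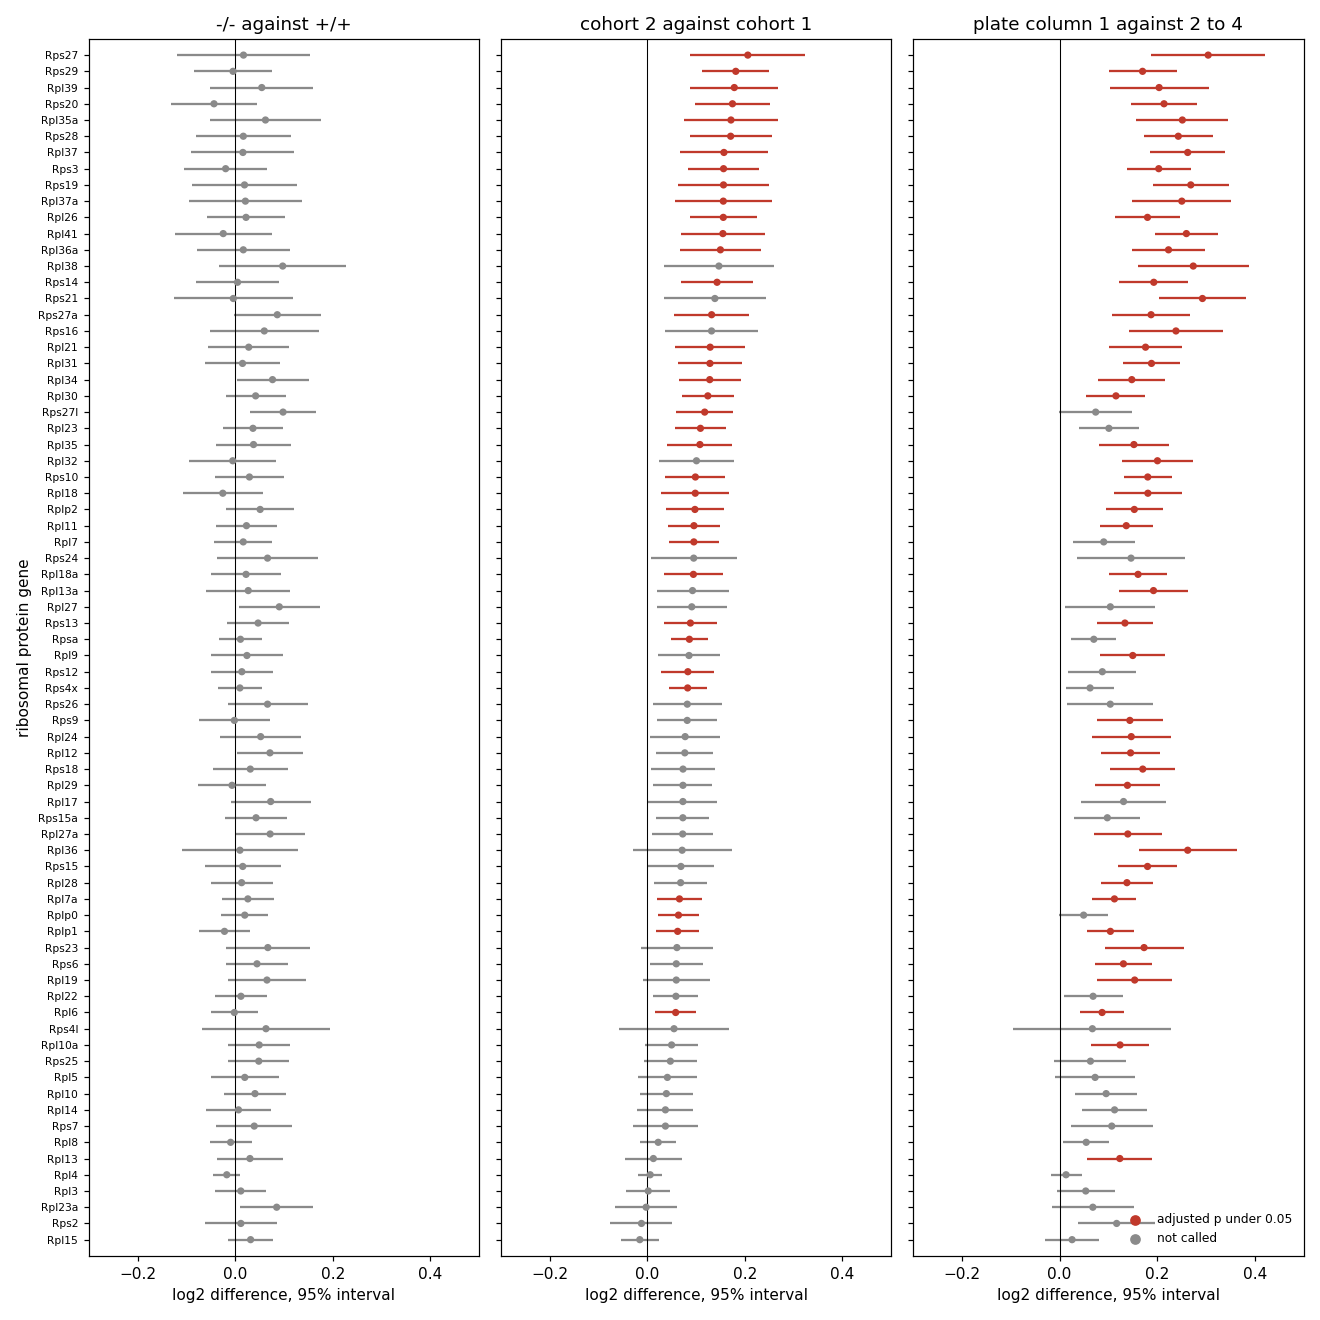
Log2 difference of 74 of the 78 ribosomal protein genes with its 95% interval for -/- against +/+, cohort 2 against cohort 1 and plate column 1 against columns 2 to 4, in the order of the cohort difference, with red for an adjusted p under 0.05. Of the 74 drawn, 0 are red in the first panel, 36 in the second and 49 in the third.

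Between the sexes no member was called, and all 78 differences of males against females were above 0, with a median of 0.06 on the log2 scale. The count of 0 of 78 stood beside 0.333% of all tested genes, and 40 of 78 had an unadjusted p under 0.05, against 12.5% of all tested genes. Rpl7 had the lowest p at 0.10 ± 0.02 (adjusted p = 0.0642), followed by Rps4x at 0.07 ± 0.02 (adjusted p = 0.0701), the X-linked gene whose product is in the small subunit, and Rpl6 at 0.08 ± 0.02 (adjusted p = 0.0818). Rps4l had the largest difference, at 0.20 ± 0.05 (adjusted p = 0.0868). It was 7.19 in the lowest, 7.58 in the median and 7.78 in the highest female and 7.54, 7.73 and 7.87 in the males. With no filter on low genes, 23 members were called, in a fit whose share of all genes is not given here. Males made up 5 of the 8 mice of column 1, and with plate column in the fit 73 of 78 were above 0 and the median was 0.04. Without -/- number 4 the median was 0.05.

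Genes beyond the rule's symbols were compared by lists. Among all tested genes, 8.09% were called higher in cohort 2 and 2.11% in column 1. Of 9 tested genes of ribosomal proteins or their paralogs with other symbols, 6 were called higher in cohort 2 (66.7%) and 5 in column 1 (55.6%). Gnb2l1, which encodes the ribosomal scaffold RACK1, was called in both (0.09 and 0.12), as was Rpl36al (0.17 and 0.22), and Fau, which encodes a small subunit protein fused to a ubiquitin-like protein, was called for the column at 0.22 and had 0.07 for the cohort (adjusted p = 0.246). Rps27rt, a retrogene copy of Rps27 at a level of 10.75, was called in both (0.18 and 0.26), and reads of it and Rps27 may be shared.

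Mitochondrial ribosomal proteins, which serve the separate ribosome of that organelle, were called in part. In cohort 2, 22 of 48 large subunit genes rose (45.8%) and 1 fell, with a median of 0.06. Of 29 small subunit genes 11 rose (37.9%), with a median of 0.08. For column 1 the counts were 12 of 48 (25%) and 11 of 29 (37.9%). Leaving out -/- number 4 gave cohort counts of 11 of 48 and 7 of 29, and column counts of 12 of 48 and 10 of 29. Mrpl15 (0.20), Mrpl14 (0.20) and Mrps33 (0.15) were among those higher in cohort 2, and Mrpl30 (0.18) and Mrps21 (0.24) among those higher in column 1. A list of 53 nuclear genes of the respiratory chain had 39 higher in cohort 2 (73.6%, median 0.11). In column 1, 40 were higher (75.5%, median 0.15), and the median RIN slope was 0.11 with 0 called. Examples were Ndufa5 (0.18) and Ndufa1 (0.22) of complex I in cohort 2, and Uqcr10 (0.24) of complex III and Atp5o (0.22) of ATP synthase in column 1. Without -/- number 4, 27 of the 53 were higher in cohort 2 and 38 in column 1. Leaving out that mouse also lowered the share of all tested genes called higher in cohort 2, as given above. The lower cohort counts of these lists are thus not particular to them. The share for column 1 without that mouse is not given here.

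**Figure D5:**
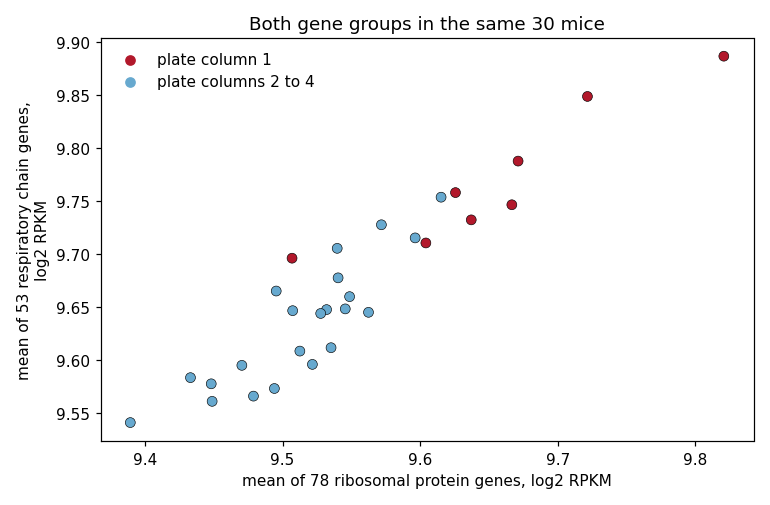
Mean of the 78 ribosomal protein genes against the mean of 53 respiratory chain genes in the same 30 mice (both log2 RPKM), with red for plate column 1 and light blue for columns 2 to 4. Both means rise together, and the mice of column 1 run from 9.70 to 9.89 in the respiratory chain mean, with 7 of the 8 above 9.60 on the ribosomal axis and +/- number 9 at 9.51.

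Lists of factors that make and use ribosomes were read against the cohort background over all tested genes, where 8.09% were called higher, 9.42% lower and 17.5% in either direction. Of 65 tested ribosome assembly genes, 7 were higher and 9 lower in cohort 2 (10.8% and 13.8%, near that background), with a median of -0.01, and 0 were higher and 1 lower (Bms1, -0.12) in column 1. Tsr1, a factor of small subunit maturation, fell in cohort 2 by 0.10, and Nhp2, of the H/ACA complex, rose by 0.14. Of 37 initiation factor genes 4 were higher and 9 lower in cohort 2 (10.8% and 24.3%), among them Eif3c (-0.15) and Eif4g1 (-0.09). Of 10 elongation factor genes 3 were higher and 2 lower: Eef1b2 (0.13) and Eif5a (0.07) rose while Eef1a2 (-0.09) and Eef2 (-0.07) fell. Of 30 genes that transcribe ribosomal RNA 3 were higher and 3 lower (20% in either direction), of 24 genes of the mTORC1 pathway 3 were higher and 6 lower (37.5%), of 9 small nucleolar RNA host genes 1 was higher (11.1%), and of 18 other mRNAs with an oligopyrimidine tract 5 were higher and 3 lower (44.4%). With -/- number 4 left out, there were 4 higher and 6 lower among the assembly genes and 2 higher and 1 lower among the mTORC1 pathway genes. Leaving it out also lowered the share of all tested genes called between the cohorts, as given above. Among the 584 other genes with a mean above 7 and a length under 1000 bases, 167 were higher and 70 lower in cohort 2, with a median of 0.06. In column 1, where 2.11% of all tested genes were called higher, 3 of 10 elongation factor genes were higher (30%) and 1 lower. Of the 18 other mRNAs with an oligopyrimidine tract 4 were higher there (22.2%) and 0 lower. Initiation factors had 1 of 37 higher (2.7%) and genes that transcribe ribosomal RNA 1 of 30 (3.33%). No host gene or mTORC1 pathway gene was called for the column.

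Outside the members, the genes whose residuals followed the mean of the members most closely were Rps27rt (r = 0.95), Pfdn5 (0.93), a subunit of the prefoldin chaperone, Cox6c (0.93) and Uqcrh (0.92) of the respiratory chain, and Atp5e (0.92) of ATP synthase, over 30 mice. Of all tested genes, 0.566% had r above 0.8, and the median was -0.01. The mean of the respiratory chain list per mouse had r = 0.94 with that of the members, and the mean of the mitochondrial ribosomal proteins r = 0.91. Over the other 29 mice without -/- number 4 these were 0.92 and 0.89.

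Markers of cell types were counted against the same background. Of 13 neuron markers 1 was higher and 3 lower in cohort 2 (7.69% and 23.1%), with a median of -0.03, and none was called for column 1. The neuron marker mean had r = -0.12 with that of the members. Oligodendrocyte markers were called higher in cohort 2 in 4 of 14 (28.6%, median 0.04) and endothelial markers in 4 of 10 (40%, median 0.07), against 8.09% of all tested genes, and in column 1 neither list had a call. Of 10 astrocyte markers 1 was lower in cohort 2, no microglial, choroid plexus or blood marker was called there, and 1 of 10 microglial markers was higher in column 1. Their part in the ribosomal protein differences was not tested.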

How the data were processed

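The values were log2 RPKM per gene after conditional quantile normalization, a correction of GC content and length effects between libraries, as deposited by the authors, 1 column per mouse. Per the submitters' processing notes, alignment used TopHat2 2.0.12, Bowtie 1.1.0 and mm10. The sources used here name no counting tool or annotation. The deposited values hold no counts, so no depth, interval of counting error or floor can be given. No 2 mice had identical values of the members.

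Genes with a mean above 0 over the 30 mice (23695 of 34871) were fitted with limma 3.58.1 (R 4.3.3; eBayes with trend) on genotype, sex, cohort and RIN. Adjusted p-values are Benjamini-Hochberg over all genes kept, two-sided, and a call is an adjusted p under 0.05. The labels do not say that mice of a number are related, and each column is 1 mouse. The fit was tested on simulated data. Alternatives changed filters, covariates, scaling, weights, moderation, samples and overlapping genes. The plate comparisons and the added values without -/- number 4 were chosen after seeing the data. The members and gene lists were chosen with earlier results of these data known. Named genes were those called (12 per comparison with the lowest adjusted p), the 4 with the lowest p and the largest rise and fall where fewer were called, the extremes of level and of co-variation, paralogs, stalk genes, Diamond-Blackfan anemia genes, and up to 4 called genes of other lists. Some members are counted but not reported here by name or drawn. Sequences and start sites are from RefSeq (GRCm38.p6).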

Additional observations from a re-analysis of the deposited data

Results flagged for a closer look

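In 23 of 99 groups of 10 mice examined (the member mean and the named genes in each genotype), the highest or lowest mouse stood apart from the next by more than 0.466 of the group's range. Chance flags about 1 in 20 groups, and the genes move together, so these are not separate events. In 20 of them the mouse was -/- number 4, whose member mean was 9.82 against 9.63 in the next -/- mouse. High single values were Rps21 at 11.50, Rpl41 at 11.31, Rps27 at 10.97, Rps4x at 10.93, Rpl37 at 10.77, Rpl38 at 10.54 and Rpl26 at 10.05. Others were Rps3 at 9.96, Rpl34 at 9.82, Rpl23 at 9.81, Rpl36a at 9.21, Rpl30 at 9.10, Rps28 at 8.84, Rps10 at 8.82, Rpl27 at 7.93, Rps19 at 7.72, Rpl18 at 7.60 and Rps27l at 7.54. In the other 3, a low mouse stood apart: Rps4l at 7.27 in +/- number 4, Rps4l at 7.19 in -/- number 5 and Rpl23a at 8.55 in -/- number 10.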

How the results depend on the processing

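No called difference of a named gene reversed its sign in any setting tried. The counts of members in this section stand without the share of all tested genes called in the same setting. They thus do not separate a change in the members from a change over all genes. The number of members called between the cohorts was 37, and it was 19 without RIN, 15 with fewer covariates, 59 with plate column and plate row added, 0 in females only, 14 in males only, 6 without the mice of lowest and highest RIN, 4 in plate columns 2 to 4 only, and 16 of 35 with members that overlap another gene left out. Leaving out each mouse in turn gave 17 (without -/- number 4) to 57 (without -/- number 10). For plate column 1 the 52 members called were 31 in cohort 1 only, 0 in cohort 2 only (median 0.24), 0 in females only, 0 in males only and 23 of 35 with overlapping members left out, where fewer genes or mice were tested. Leaving out 1 mouse gave 42 to 58. The median RIN slope of 0.11 was -0.0076 with plate column added, -0.020 with plate column and row, -0.0021 in females only and -0.028 in plate columns 2 to 4 only. Leaving out 1 mouse gave 0 to 1 members called for RIN, 0 to 2 for -/- against +/+ and 0 to 5 for sex, the highest without +/- number 1, and 23 members were called for sex with no filter on genes. No paired analysis was possible because the labels carry no replicate numbers and the numbers here are in accession order. The depth of the libraries is unknown.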
